A study of Mus musculus with 6 samples.

Results

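Guanylate-binding proteins (Gbp genes) and immunity-related GTPases (Irg genes) are the large GTPases that mouse cells make in response to interferon-gamma, and the Serpina3 genes encode a cluster of serine and cysteine protease inhibitors of which Serpina3g is itself an interferon-responsive gene of leukocytes. Here 10 of these genes were followed in tumors from mice treated with sulindac sulfide (SS): Gbp2, Gbp3, Gbp7, Irgm1, Irgm2, Igtp and Iigp1 on the GTPase side, and Serpina3g, Serpina3f and Serpina3n on the inhibitor side. The members were found by gene symbol in the table of estimated counts per transcript, and the transcripts of a symbol were summed. Of the 10, 8 had rows, with 13 transcripts among 20648, which gave 8 of 13730 genes. Irgm1 and Irgm2 had no row and their levels were not analysed here. The genes were chosen on this same contrast, control against SS in these 6 tumors, so their levels are given as a description and carry no test.

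The tumors grew from C0321 cells, a mouse triple-negative breast cancer line of mesenchymal character that was derived as a clone from a mammary tumor of an Lfng-deficient mouse, so both groups share that background. Female FVB mice, 6 to 10 weeks old, received the cells in Matrigel and PBS in the mammary fat pad. Once a mass could be felt, the mice of the SS group (3 tumors) were given 60 mg/kg of SS by mouth every day for 14 days. Those of the control group (3 tumors) were given saline by the series description, or vehicle by the study's text. The treatment label of the drug group reads sulfate where the title of the series reads sulfide. SS is the active metabolite of the anti-inflammatory drug sulindac, inhibits both cyclooxygenases and modulates gamma-secretase, the protease that releases the active part of Notch receptors. The question behind the comparison was what SS changes in the whole tumor, cancer cells and host cells together. The labels number the tumors 1 to 3 in each group and tie no tumor of one group to a tumor of the other. Nothing in them says from which mouse each tumor of a group came, so p-values measure only the spread between these samples, which may be technical.

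Total estimated counts ran from 12314368 to 24441522 in control tumors and from 8468914 to 13696665 in SS tumors, so that 3 counts, taken as the floor, equalled 0.123 to 0.354 CPM. Levels below are CPM (counts per 1000000 counts) after scaling with edgeR's TMM factors. In edgeR (quasi-likelihood test, Benjamini-Hochberg adjustment), 0 of 10902 genes (0%) had an adjusted p under 0.05. Without adjustment 348 genes (3.19%) were higher and 345 genes (3.16%) were lower at p under 0.05, while DESeq2 called 35 genes after adjustment and limma on quantile-normalized values called 0. The 8 markers fixed for mammary epithelium and tumor had rows, although Krt5 had 0 counts in SS 3 and Epcam had 2 and 1 counts in control 2 and 3, under the floor. Their summed level was 7390 to 8710 CPM in control tumors and 6610 to 9360 CPM in SS tumors, most of it Vim. Before adjustment 1 of the 8 passed 0.05 in edgeR, the keratin gene Krt18, whose log2 fold change was -0.5 ± 0.12 (adjusted p = 0.76). The fitted changes of Epcam and Cdh1 were positive and those of the other 5 negative. In whole tumors, fewer cells of a type and less RNA per cell cannot be told apart.

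As background, interferon-gamma binds a receptor built from Ifngr1 and Ifngr2, whose kinases Jak1 and Jak2 pass the signal on to the nucleus. The response acts through GAS elements, and Irf1, made early in it, binds ISRE elements in GTPase genes. The GTPases then coat and break the vacuoles of intracellular parasites and bacteria. Serpina3g inhibits lysosomal cathepsins and lies in a cluster whose genes are also targets of NF-kB and of acute phase signals.

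The upstream sequences are shown because exact ISRE matches were found in promoters of the GTPase members and not in those of the Serpina3 members. Exact GAS matches were found in both families. Of the 10 members, 9 had an entry in the RefSeq promoter table (GRCm38.p6), and the 250 bases before each start were searched on both strands for 3 motifs. The ISRE motif, GAAANNGAAA, occurred in 978 of 32851 promoters (2.98%). It was present in 6 of the 9 members, namely Gbp2, Gbp3, Gbp7, Igtp, Irgm1 and Irgm2, and in none of the 3 Serpina3 genes. Within the 5 printed windows the matches are in capitals, and the 4 Gbp windows hold the motif on the opposite strand. All 5 windows lie upstream of the annotated start on the plus strand, at chr3:142620589-142620628 for Gbp2, chr3:142559984-142560029 for Gbp3, chr3:142530268-142530307 for Gbp7, chr3:142594695-142594734 for Gbp2b and chr11:58199507-58199546 for Igtp. Gbp2b, not a member, is shown because it lies between Gbp3 and Gbp2.
Gbp2: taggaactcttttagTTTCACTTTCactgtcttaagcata
Gbp3: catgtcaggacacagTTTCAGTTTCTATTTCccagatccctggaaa
Gbp7: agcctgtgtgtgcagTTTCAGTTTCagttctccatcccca
Gbp2b: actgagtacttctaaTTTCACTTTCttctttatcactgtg
Igtp: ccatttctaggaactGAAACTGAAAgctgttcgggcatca

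The match ended 50 bases before the start in Gbp2, 44 in Gbp7 and 25 in Igtp. Gbp3 held 2 overlapping matches, the nearer of which ended 30 bases before its first start, and its second annotated start, at 142560356, had no match. In Gbp2b the match lay farther out, ending 128 bases before the start. The Igtp and Irgm2 promoters were 90.2% identical over 215 aligned bases, so their matches are not separate observations.

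The Serpina3 promoters were searched with the same 3 motifs. The GAS motif, TTCNNNGAA, which reads the same on both strands, occurred in 2306 promoters (7.02%) and in 5 of the 9 members, Gbp7, Igtp, Irgm2, Serpina3f and Serpina3g. The kB motif, GGGNNTTTCC, occurred in 464 promoters (1.41%) and in Serpina3g and Serpina3n. Windows around these matches are shown for the cluster on chromosome 12, all on the plus strand. They lie at chr12:104236047-104236086 (Serpina3g, kB), chr12:104236099-104236137 (Serpina3g, GAS), chr12:104214408-104214446 (Serpina3f, GAS) and chr12:104406522-104406561 (Serpina3n, kB), with the match in capitals.
Serpina3g kB: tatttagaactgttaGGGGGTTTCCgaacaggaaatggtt
Serpina3g GAS: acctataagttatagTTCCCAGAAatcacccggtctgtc
Serpina3f GAS: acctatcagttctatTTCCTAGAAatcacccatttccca
Serpina3n kB: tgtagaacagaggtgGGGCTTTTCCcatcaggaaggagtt

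The GAS match of Serpina3g ended 25 bases before its start and that of Serpina3f 113 bases before its first start. The kB match ended 76 bases before the start in Serpina3g and 162 in Serpina3n. Both Serpina3g windows also fall inside the span of a longer Serpina3g transcript, which starts upstream of Serpina3f, at 104214454. That start was not searched as a start of its own, and the Serpina3f GAS window lies just upstream of it. Over 144 aligned bases the Serpina3g and Serpina3f promoters were 82.6% identical. A match is a description of letters only, and with 1 mismatch allowed the motifs were in 31.4% (ISRE), 65.8% (GAS) and 21.9% (kB) of all promoters. Serpina3g and Serpina3f then had ISRE matches too, so the split between the families holds for exact matches only.

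**Figure D1:**
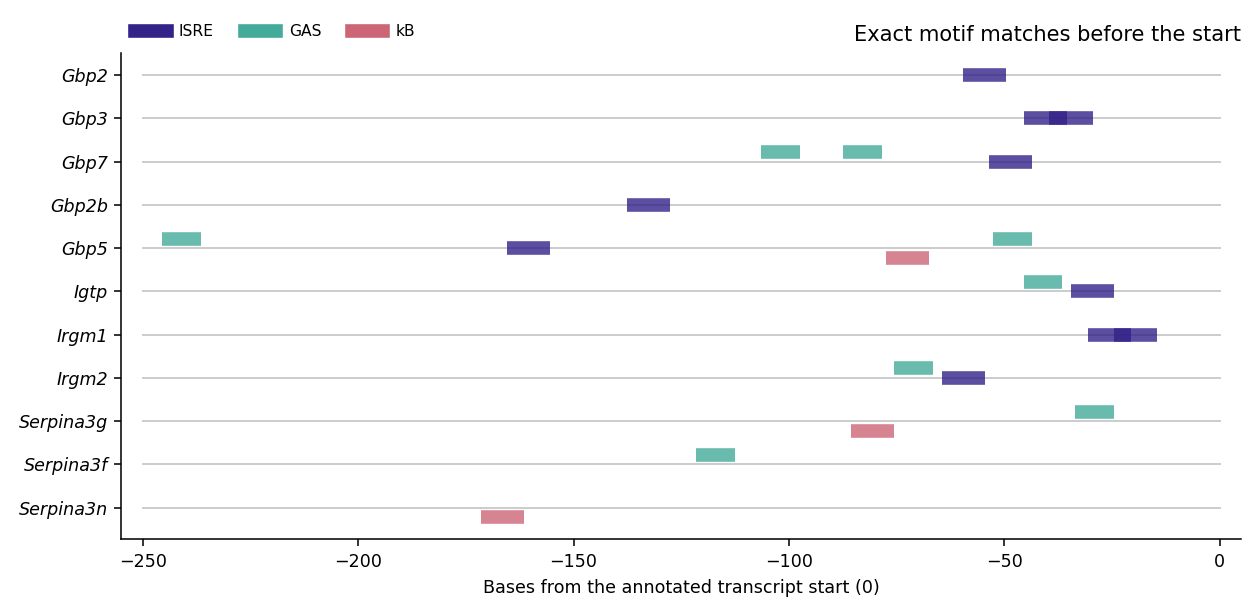
Positions of exact ISRE, GAS and kB matches (colored bars, drawn to scale) in the 250 bases before the annotated start (0) of 9 members and of Gbp2b and Gbp5, with the first start used for Serpina3f and Gbp3. Exact ISRE matches lie in the GTPase promoters, within 64 bases of the start in all members that have one, and the Serpina3 promoters hold exact GAS or kB matches only. Gbp5, a GTPase gene that is not a member, holds ISRE, GAS and kB matches.

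Gbp2, Gbp3 and Gbp7, guanylate-binding proteins of the chromosome 3 cluster, were higher in each SS tumor than in each control tumor. Serpina3g showed the same order with the largest fold of the 6 members that passed the filter on low counts, 4.51 on group means. Gbp2 measured 36.4, 41.6 and 45.6 CPM in control tumors 1 to 3 and 63.4, 54.6 and 72.1 CPM in SS tumors 1 to 3. Its group means were 41.2 ± 4.63 and 63.4 ± 8.74 CPM (SD, n = 3), which is 0.62 ± 0.15 (SE) as a log2 fold change. The lowest SS tumor stood above the highest control tumor by more than the control SD.

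Gbp3 read 16.6, 24.2 and 29.2 CPM in the control tumors and 43.0, 35.5 and 40.7 CPM in the SS tumors. The means were 23.4 ± 6.36 and 39.8 ± 3.85 CPM, and the log2 fold change was 0.76 ± 0.21 (SE). The controls spread more than the SS tumors, with control 1 the lowest of all 6. Gbp7 gave 35.1, 39.9 and 35.5 CPM against 61.0, 52.5 and 50.7 CPM. Its means were 36.8 ± 2.68 and 54.7 ± 5.49 CPM, with a log2 fold change of 0.57 ± 0.13, the smallest standard error among the members. SS 1 was the highest tumor for Gbp3 and Gbp7 and SS 3 for Gbp2.

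Serpina3g, a cathepsin inhibitor known from activated T cells and macrophages, was at 1.03, 0.786 and 1.52 CPM in control tumors and at 5.01, 4.77 and 5.24 CPM in SS tumors. These levels rest on 13, 16 and 37 counts and on 69, 40 and 62 counts. The SS mean was 5.01 ± 0.235 CPM and the control mean was 1.11 ± 0.373 CPM (SD, n = 3). The log2 fold change was 2.16 ± 0.39, between 1.96 and 2.46 when any single tumor was left out.

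**Figure D2:**
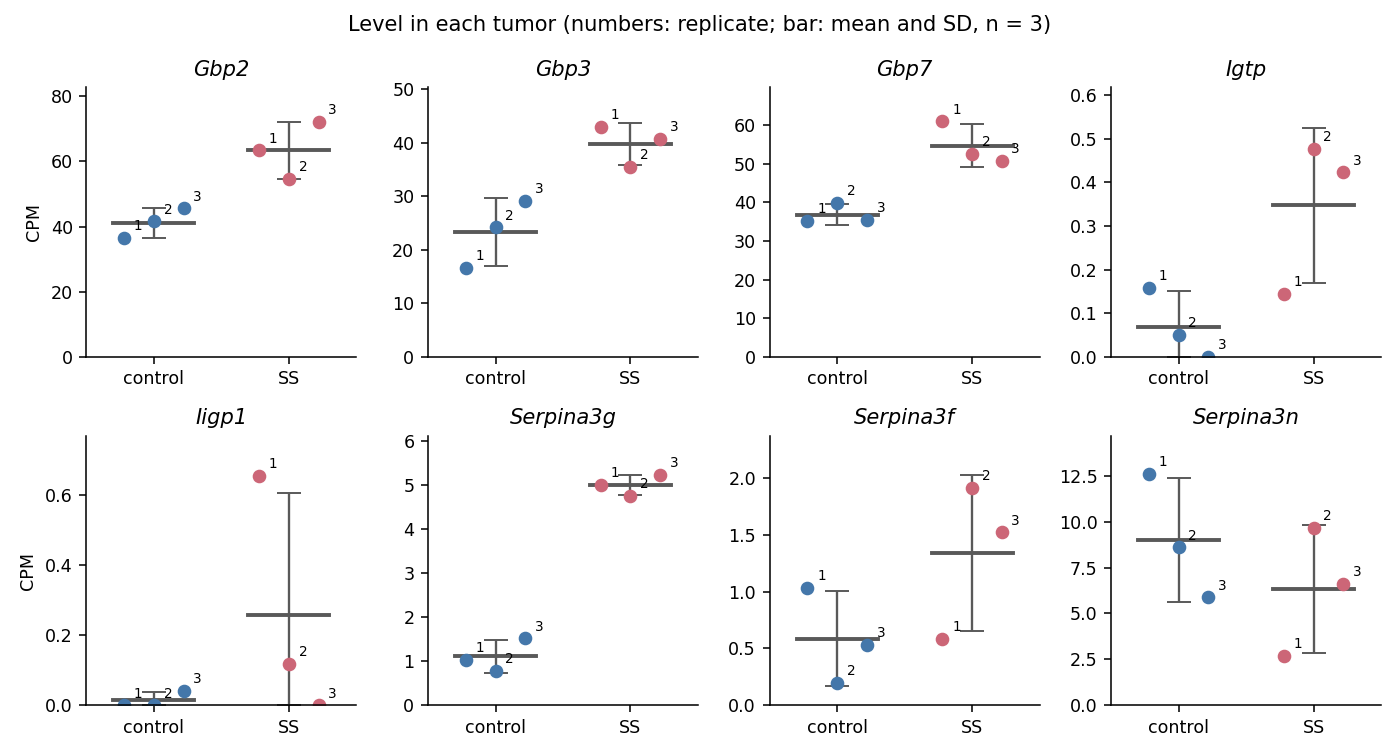
CPM of the 8 members with rows in each of the 6 tumors (points, numbered by replicate), with the mean and SD of each group (n = 3, lower bars ending at 0 for Igtp and Iigp1). The SS tumors sit above all control tumors for Gbp2, Gbp3, Gbp7 and Serpina3g, and the groups overlap for the other 4 members.

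For the other Serpina3 members the groups overlapped. Serpina3f, the neighbour upstream of Serpina3g, was at 1.03, 0.197 and 0.534 CPM in control tumors and 0.581, 1.91 and 1.52 CPM in SS tumors, on 4 to 18 counts per tumor. The groups overlapped, since SS 1 lay below control 1, and the log2 fold change was 1.2 ± 0.75. It was 0.77 without control 2 and 1.82 without control 1. Serpina3n, the acute phase member of the cluster and an inhibitor of granzyme B and elastase-like proteases, was at 12.6, 8.6 and 5.87 CPM against 2.69, 9.66 and 6.59 CPM. Here the control mean was the higher one, 9.01 ± 3.37 against 6.31 ± 3.49 CPM, with a log2 fold change of -0.52 ± 0.48 and overlapping groups. The log2 fold change of Serpina3n was -0.15 without SS 1, -0.21 without control 1 and -0.96 without SS 2.

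The Irg members were near the floor. Igtp (Irgm3), which guards host membranes from other Irg proteins, had 2, 1 and 0 counts in control tumors and 2, 4 and 5 counts in SS tumors, or 3 against 11. After library size the SS rate, from counts pooled over tumors, was 6.19 times the control rate. No interval is given, since Igtp was chosen on this contrast and pooling leaves out the spread between tumors. Iigp1, which loads onto parasite vacuoles, had 0, 0 and 1 counts against 9, 1 and 0, and SS 1 alone gave 9 of the 10 SS counts. Its rate ratio of 16.9 thus rests on a single tumor. Neither passed the filter on low counts, and all other statements on fitted values cover the 6 members that did.

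Of those 6 members, 4 had every SS tumor above every control tumor, beside 710 of 10902 genes (6.51%) in that direction and 698 genes (6.4%) in the opposite one. Since the members were chosen on this contrast, nothing is read from that count. Their median log2 fold change was 0.69, and that of all genes tested was -0.0013. Control libraries 2 and 3 were deeper than each SS library. With all libraries thinned to the smallest total, the log2 fold change was 0.63 for Gbp2, 0.78 for Gbp3, 0.62 for Gbp7, 2.46 for Serpina3g, 0.98 for Serpina3f and -0.56 for Serpina3n.

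Levels between genes were compared as CPM per kilobase of transcript, using group means. In control tumors Gbp2 was the highest member at 16.4 ± 1.84 CPM per kb (SD, n = 3), followed by Gbp3 at 8.84 ± 2.4, Gbp7 at 6.56 ± 0.475 and Serpina3n at 4.37 ± 1.63. Gbp2 stood clear of Gbp3, with 14.5 as its lowest tumor and 11.1 as the highest of Gbp3. Gbp3 and Gbp7 overlapped in control tumors, since the lowest Gbp3 value was 6.29 and the highest Gbp7 value 7.11 CPM per kb. Serpina3g (0.613 ± 0.214) and Serpina3f (0.287 ± 0.207) overlapped as well. Igtp at 0.0342 and Iigp1 at 0.00444 CPM per kb closed the order.

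In SS tumors the order of the Gbp members on the per-kilobase scale was the same, 25.2 ± 3.47 for Gbp2, 15.0 ± 1.44 for Gbp3 and 9.75 ± 0.981 for Gbp7, and none of the 3 ranges overlapped. Serpina3g, at 2.77 ± 0.127 CPM per kb, came next to Serpina3n at 3.06 ± 1.69, from which it did not differ beyond the spread. Serpina3f was at 0.638 ± 0.324, Igtp at 0.171 and Iigp1 at 0.0836 CPM per kb.

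The chromosome 3 cluster holds Gbp5, Gbp7, Gbp3, Gbp2b and Gbp2 in that order, from 142496934 to 142638009 (mm10), all on the plus strand. The genes between and beside the members were tested in edgeR over all genes, with Benjamini-Hochberg adjustment. Gbp2b was at 10.8, 10.8 and 18.8 CPM in control tumors and at 53.9, 28.5 and 13.9 CPM in SS tumors. SS 3 lay below control 3, so the groups overlapped. Its log2 fold change of 1.25 ± 0.47 had an unadjusted p of 0.0289 in edgeR (adjusted p = 0.771). Without SS 1 the change was 0.65 and the unadjusted p from edgeR was 0.138. Gbp5, at the far end, differed by 0.24 ± 0.49 on the log2 scale (edgeR adjusted p = 0.943), and its direction turned to -0.05 with a tumor left out.

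The second Gbp cluster, on chromosome 5, holds Gbp8, Gbp9, Gbp4, Gbp10 and Gbp6. Gbp9 was at 6.4, 7.67 and 8.04 CPM in control tumors and 11.1, 10.5 and 9.21 CPM in SS tumors, with no overlap. As a log2 fold change this was 0.48 ± 0.21, and edgeR gave it an unadjusted p of 0.051 and an adjusted p of 0.771. Gbp4 had 0.24 ± 0.5 (edgeR adjusted p = 0.942). Gbp8, Gbp10 and Gbp6 had too few counts for the test, 31 against 26, 11 against 9 and 15 against 10 counts in control and SS tumors.

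**Figure D3:**
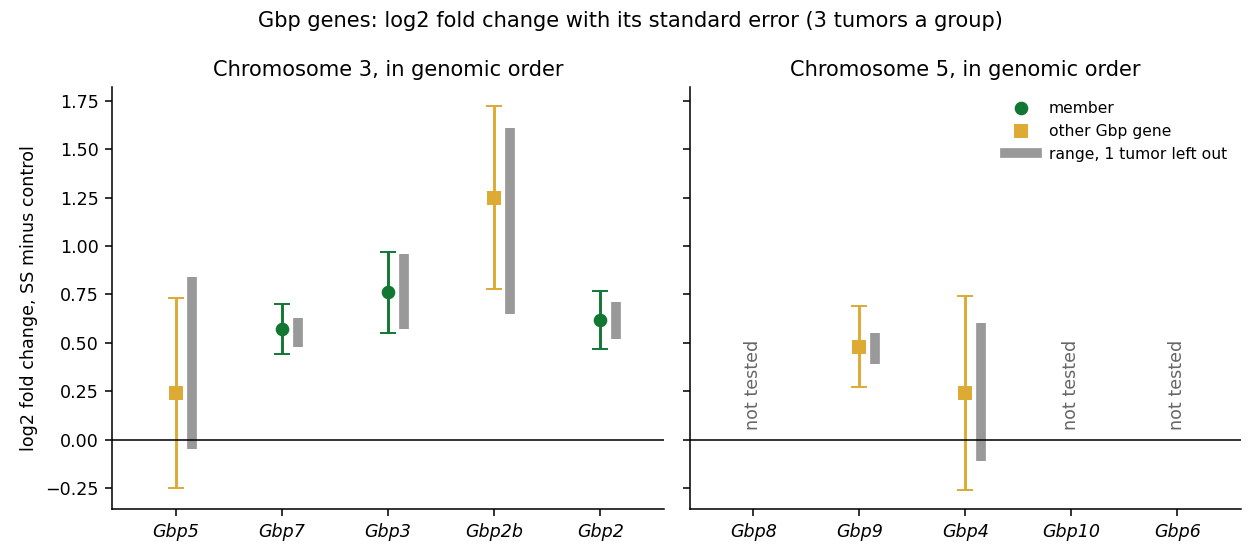
Log2 fold change (SS minus control, points) with its standard error for the Gbp genes of chromosomes 3 and 5 in genomic order, 3 tumors a group, and the range over fits that leave out 1 tumor (grey bars). Gbp7, Gbp3 and Gbp2 stay between 0.48 and 0.96 in all these fits, Gbp2b spans 0.65 to 1.61, and Gbp5 and Gbp4 cross 0.

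The remaining tested interferon-inducible GTPases were the myxovirus resistance gene Mx1 and the very large GTPases Gvin1 and Gm4070. Mx1 was at 0.711, 0.295 and 1.19 CPM against 2.25, 2.38 and 0.507 CPM, overlapping groups with a log2 fold change of 1.2 ± 0.76 (edgeR adjusted p = 0.843). Gvin1 (0.52 ± 0.26) and Gm4070 (0.51 ± 0.26) share 98.3% of their 75-base windows with other genes, mostly each other, so they are 1 uncertain observation and not 2. In all, 23 further GTPases were listed, 12 had rows and 7 were tested. With Gvin1 and Gm4070 counted once, all 6 fitted changes were positive, beside 5433 of all 10902 genes (49.8%), and their median log2 fold change was 0.5. Of the 7 tested, 1 (Gbp2b) had an unadjusted p under 0.05, against 3.19% of all genes that were higher. After adjustment 0 of the 7 passed.

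Among the other Serpina3 and clade A serpins, 19 were listed, 2 had rows and 1 was tested. Serpina3h, the neighbour downstream of Serpina3g, was at 3.48, 2.21 and 3.37 CPM against 3.56, 3.7 and 4.99 CPM. The groups did not overlap, though control 1 and SS 1 nearly met, and the log2 fold change of 0.44 ± 0.35 had an adjusted p of 0.88 in edgeR. Serpina3m, with 21 and 12 counts, was too low for the test.

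Reads of 75 bases can be shared between such close relatives. The share of 75-base windows that also occur in another gene was 8.91% for Serpina3g, 5.61% for Serpina3f, 1.46% for Serpina3n, 0.983% for Gbp2, 2.68% for Gbp3 and 11.4% for Gbp7. For Igtp it was 8.37%, all shared with Irgm2. For Gbp10 and Gbp6 it was 75.5% and 55.2%, and counts for these could belong to neighbours.

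The division of counts among transcripts differed from tumor to tumor in 3 members. The 4 transcripts of Gbp3 took equal shares, within 0.05 percentage points, in 5 of the 6 tumors, with NM_018734 at 77.43%. In SS 1 alone NM_018734 fell to 70.28%, and NM_001289493, which starts at the second annotated start, stood at 20.37% against 13.77% elsewhere. For Gbp7, NM_001083312 held 53.92, 53.92 and 53.91% in control tumors and 68.18, 67.65 and 61.24% in SS tumors. The 3 SS tumors were above control shares that were nearly identical. Both Gbp7 transcripts have the same start and end, and whether the near-identical shares arose in the division of counts was not tested.

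For Serpina3g, all counts of the control tumors and of SS 2 were on NM_001353613 (chr12:104236147-104241940). The longer NM_009251 (chr12:104214454-104241945), whose span covers Serpina3f, took 30.38% in SS 1 and 28.21% in SS 3. On NM_001353613 alone the counts were 13.0, 15.51 and 37.12 in control tumors and 47.98, 40.0 and 44.4 in SS tumors, still without overlap. Equal shares in separate tumors were common in this table. Of 2719 genes with several transcripts and at least 50 counts in each tumor, 765 (28.1%) had shares equal within that tolerance in at least 1 pair of tumors. Transcript shares are therefore given as deposited and without a test.

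**Figure D4:**
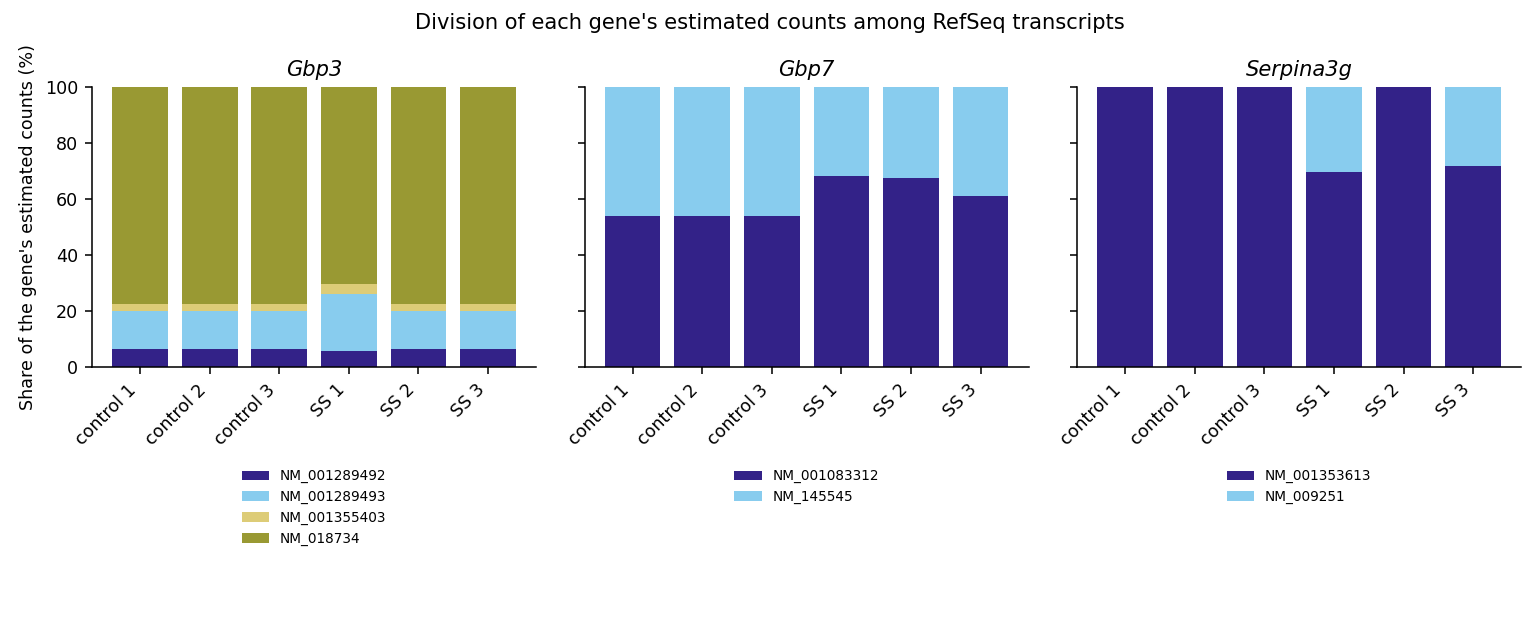
Share of each gene's estimated counts (percent, y axis) assigned to each RefSeq transcript of Gbp3, Gbp7 and Serpina3g in each tumor (x axis). Gbp3 differs in SS 1 only, Gbp7 is at 53.9% in all control tumors and between 61.24 and 68.18% in SS tumors for NM_001083312, and NM_009251 of Serpina3g appears in SS 1 and SS 3 only.

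The pathway that drives the GTPases showed no gene past an unadjusted p of 0.05 in edgeR. Of 18 signalling genes listed, 16 had rows and 14 were tested, and their median log2 fold change was -0.02. Ifng, the ligand, had no row and was not analysed here. The receptor chains were too low for the test, Ifngr1 with 36 against 22 counts and Ifngr2 with 23 against 8 counts. After library size these gave rate ratios of 1.03 (95% counting interval 0.578 to 1.8) and 0.587 (0.227 to 1.36).

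Jak1, the kinase on Ifngr1, was at 425, 356 and 395 CPM against 344, 329 and 366 CPM, with a log2 fold change of -0.18 ± 0.1 (edgeR adjusted p = 0.813). Jak2 was at 42.4, 31.4 and 31.0 CPM against 38.2, 38.8 and 27.9 CPM (edgeR adjusted p = 0.997). The groups overlapped for both kinases.

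Irf1, which binds the ISRE, was at 54.8, 54.0 and 66.4 CPM against 65.6, 68.6 and 62.3 CPM. Control 3 lay inside the SS range, and the log2 fold change was 0.16 ± 0.12 (edgeR adjusted p = 0.867). Socs1, the feedback inhibitor of the receptor, was at 8.77, 7.82 and 5.21 CPM against 8.71, 6.68 and 9.63 CPM, a log2 fold change of 0.21 ± 0.28 (edgeR adjusted p = 0.924). These p-values missed the threshold and do not show that the signalling genes were equal.

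Other known targets of interferon-gamma made a mixed group. Of 50 listed, 36 had rows and 25 were tested, 18 of these with positive changes (49.8% over all genes) and a median log2 fold change of 0.21. At an unadjusted p under 0.05 in edgeR, 4 were higher (3.19% of all genes were) and 1 was lower (3.16%). Il18bp, the secreted inhibitor of interleukin-18, was at 2.69, 2.51 and 5.01 CPM against 12.5, 6.68 and 6.59 CPM, with no overlap, a log2 fold change of 1.33 ± 0.4 and an edgeR p of 0.0112 (adjusted 0.771).

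Tap1, a subunit of the peptide transporter of MHC class I loading, was at 1.5, 1.47 and 2.3 CPM against 4.43, 3.58 and 2.7 CPM (log2 fold change 1.01 ± 0.4). Ifi30, a lysosomal thiol reductase of antigen processing, was at 1.19, 1.82 and 1.35 CPM against 3.12, 2.5 and 2.96 CPM (0.97 ± 0.4). Pdcd1lg2, a ligand of the checkpoint receptor PD-1, was at 12.0, 8.26 and 14.7 CPM against 27.4, 19.2 and 13.7 CPM (0.79 ± 0.31), with SS 3 inside the control range. In edgeR their unadjusted p was 0.0369, 0.0417 and 0.0353, and the adjusted p was 0.771 for each.

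Of the 5 targets with an unadjusted p under 0.05, the lower one was Serping1, the inhibitor of complement C1, at 10.4, 12.3 and 12.7 CPM in control tumors and 6.6, 9.66 and 7.18 CPM in SS tumors. All SS tumors were below all control tumors, with a log2 fold change of -0.61 ± 0.22 and an edgeR p of 0.0271 (adjusted 0.771).

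Further lists covered the functions and contexts of the 2 families. Of the 11 autophagy conjugation genes, which place Irg and Gbp proteins on membranes, all were tested, 0 had an unadjusted p under 0.05 in edgeR and the median log2 fold change was -0.09. Of 12 proteases that clade A3 serpins can meet, such as cathepsins and granzymes, 5 had rows and were tested, 0 passed and the median was 0.16. Of 19 acute phase and glucocorticoid genes, the context in which Serpina3n is best known, 11 were tested. Changes were positive in 9 of the 11 (49.8% over all genes), with a median log2 fold change of 0.36. At an unadjusted p under 0.05 in edgeR, 2 were higher (3.19% of all genes were).

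Saa3, an acute phase apolipoprotein, was at 10.4, 14.8 and 10.8 CPM in control tumors and at 7.55, 65.0 and 59.5 CPM in SS tumors. SS 1, the lowest of all 6, had the opposite order, and the log2 fold change of 1.87 ± 0.66 had an edgeR p of 0.0233 (adjusted 0.771). The skeletal muscle marker Acta1 had SS 1 as its lowest tumor too and SS 2 and SS 3 as its highest, at 1740, 4320 and 719 CPM in control tumors and 96.2, 8330 and 4900 CPM in SS tumors, and its part in the level of Saa3 was not tested. SS 1 was also the lowest tumor for Serpina3n and the highest for Gbp2b and Iigp1. Tsc22d3, a glucocorticoid-induced leucine zipper gene, was at 33.9, 27.7 and 33.0 CPM against 45.1, 61.6 and 69.7 CPM, with no overlap. The log2 fold change of 0.9 ± 0.18 had an adjusted p of 0.679 in edgeR and of 0.00616 in DESeq2. Of the listed genes outside the members, the cell type markers not counted, Tsc22d3 was the 1 that DESeq2 called.

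Over all 7 lists 152 genes were named, 94 had rows and 74 were tested. At an unadjusted p under 0.05 in edgeR, 7 were higher and 1 was lower, beside 3.19% and 3.16% of all genes, and 0 had an adjusted p under 0.05. The count of 8 fell to 2 without SS 1 and to 4 without control 2, and was 11 without SS 3. Over the 6 fits that leave out 1 tumor, the unadjusted p in edgeR stayed under 0.05 in 6 for Tsc22d3, in 5 for Il18bp, in 3 for Gbp2b, in 2 each for Tap1, Pdcd1lg2, Serping1 and Saa3, and in 0 for Ifi30. The lists were drawn up with earlier results of these data known and give no independent support to the members.

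**Figure D5:**
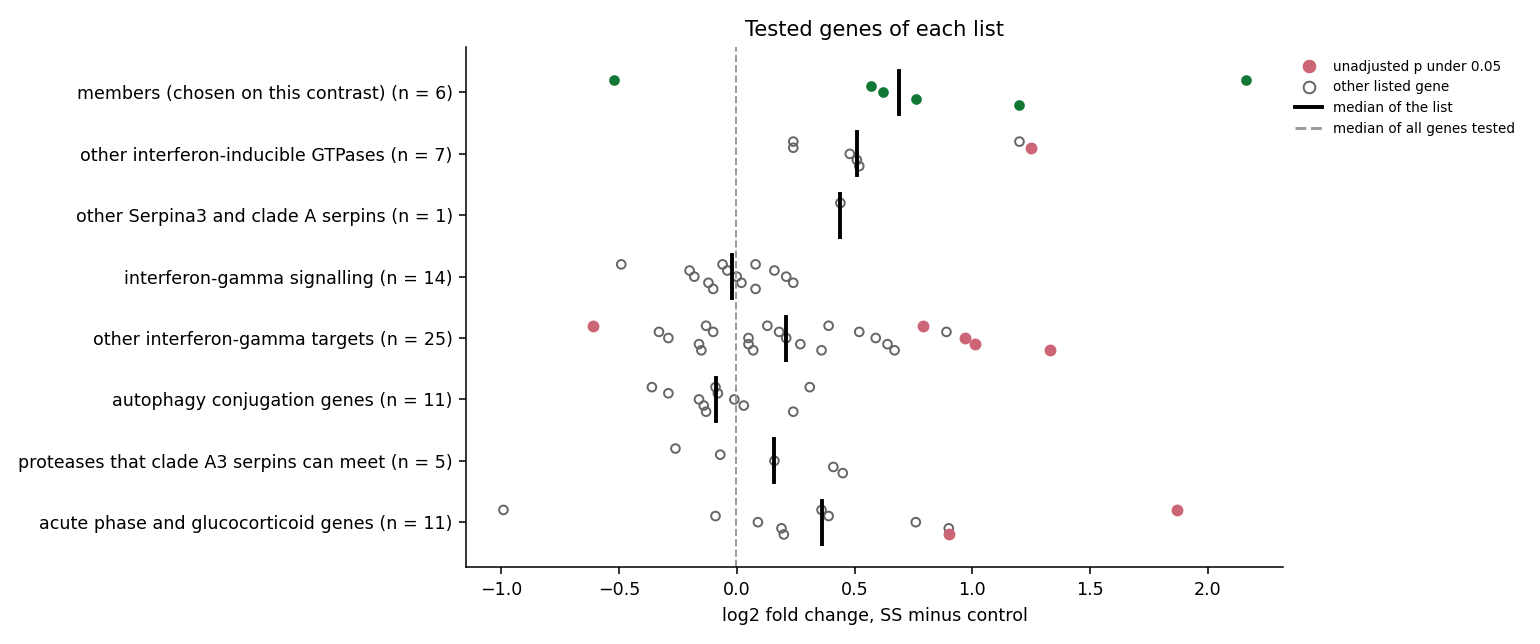
Log2 fold change (SS minus control, x axis) of each tested gene of the members and of the 7 lists (rows), with list medians (black bars), the median of all 10902 genes (dashed line) and genes at an unadjusted p under 0.05 in edgeR (red). The other GTPases are all on the positive side (median 0.51 with Gvin1 and Gm4070 plotted separately), and the signalling genes spread around 0 (median -0.02).

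Itgax, the CD11c integrin of dendritic cells and some macrophages, was at 66.9, 49.4 and 50.9 CPM in control tumors and 173, 131 and 89.6 CPM in SS tumors. The groups did not overlap, and edgeR gave a log2 fold change of 1.24 ± 0.24 (adjusted p = 0.679). Of 9 dendritic cell markers, 7 had rows and 4 were tested. Of these 4, 1 (Itgax) was higher at an unadjusted p under 0.05 in edgeR, beside 3.19% of all genes. Clec9a and Cd209a had no row, and Flt3, Xcr1 and Siglech were too low for the test. Of the other tested markers, Batf3 had a log2 fold change of 1.05 ± 0.72, Zbtb46 of -0.23 ± 0.61 and Ccr7 of -0.03 ± 0.8, all with overlapping groups. The summed level of the list was 52.8 to 86.1 CPM in control tumors and 95.8 to 185 CPM in SS tumors, and this separation came from Itgax. Without it the sum was 19.2, 3.34 and 3.49 CPM in control tumors and 12.4, 9.66 and 6.25 CPM in SS tumors, which overlapped.

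All 8 macrophage markers were tested. All 8 fitted changes were positive (49.8% over all genes), with a median log2 fold change of 0.15. In edgeR 0 of the 8 had an unadjusted p under 0.05. Their sums overlapped at 722 to 865 CPM in control tumors and 763 to 953 CPM in SS tumors. Ptprc (CD45), carried by all leukocytes, ran from 41.4 to 64.2 CPM in control tumors and from 54.7 to 59.8 CPM in SS tumors. Of 10 T and NK cell markers, 2 had rows, summing to 8.04 to 47.8 CPM in control tumors and 4.31 to 20.8 CPM in SS tumors. Of 4 red cell markers, 3 were lower at an unadjusted p under 0.05 in edgeR, beside 3.16% of all genes. After adjustment 0 passed (adjusted p = 0.771 for each of the 3). The median log2 fold change of the 4 was -1.02. Their sums overlapped at 1890 to 3920 CPM in control tumors and 853 to 1930 CPM in SS tumors. The part of these cells in the levels of the GTPases and of Serpina3g was not tested.

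The genes most like the members over the 6 tumors were named by Pearson's r, as a description without a test. The 6 tumors form 2 groups, each point is 1 library shared by all genes, and a pooled r does not separate the difference between the groups from the spread within them. With the mean standardized log2 CPM of Gbp2, Gbp3 and Gbp7, the highest among 10902 genes included Myo9a (r = 0.998), Rsrp1 (0.989), Alg2 (0.988) and Mcm3ap (0.987). Rsrp1 ran from 0.949 to 1.27 CPM in control tumors and from 2.38 to 3.3 CPM in SS tumors, and Myo9a from 112 to 123 CPM and from 144 to 154 CPM. With Serpina3g they were Nup153 (0.986), Zbed6 (0.986), Trps1 (0.98), Zfc3h1 (0.977) and Zfp760 (0.974). None of these 9 is on the lists of interferon genes, and none had an adjusted p under 0.05 in edgeR.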

How the data were processed

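RNA from 6 tumors (3 control, 3 SS) was sequenced by the authors as stranded poly(A) libraries of paired 75-base reads. The deposited table holds estimated counts per RefSeq transcript on mm10. The submitters' processing notes name CASAVA 1.8.1, Bowtie2 2.2.5 and STAR 2.5.3a. How counts were divided among transcripts is not given in the sources used here.

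Counts were summed by gene symbol and rounded (13730 genes), 21 symbols that had been turned into dates being restored first. All summed transcripts held at least 10 counts over the tumors. Genes were filtered with filterByExpr and tested in edgeR 4.0.16 (quasi-likelihood test, TMM, R 4.3.3) with Benjamini-Hochberg adjustment over 10902 genes. The study's quantile normalization was tried as an alternative with the moderated test of limma 3.58.1 in place of the study's own statistic, which was not run. DESeq2 1.42.0 was another alternative. Scripts were tested on simulated data. CPM used TMM-scaled library sizes, and correlations a prior count of 2. Start and end positions are as the table gives them. Lengths for the levels per kilobase were those of the GENCODE transcripts matched to the RefSeq accessions. Without a match they came from the gene's other transcripts or its longest GENCODE transcript. For Serpina3g, NM_001353613 had no length of its own and took that of NM_009251. Shared windows were counted in GENCODE transcripts. Intervals and floors cover counting error only.

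The members and lists were chosen with earlier results of these data known. Named genes were all members, listed genes with an unadjusted p under 0.05, the ligand, receptor, kinases, Irf1 and Socs1, all other tested GTPases and Serpina3 genes, and the 5 genes most like each pattern (for the GTPase members, the mean of the 3 that passed the filter). A few genes that the rule names are not reported here.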

Additional observations from a re-analysis of the deposited data

How the results depend on the processing

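The 6 fitted members were refitted under 14 other settings, among them 6 fits that leave out 1 tumor. All 84 values kept their sign. They come from the same tumors and from members chosen on this contrast, so nothing is read from that count. The value of Serpina3g moved by about the spread between replicates (1 SD) in 2 settings, to 2.46 without control replicate 3 and to 2.46 with thinned counts. With 1 mismatch allowed, 8 members had an ISRE match, 8 a GAS match and 5 a kB match. The 8 with an ISRE match then included Serpina3g and Serpina3f. The count of genes with an adjusted p under 0.05 was 0 in all edgeR and limma fits and 35 in DESeq2, and 0 to 0 with single tumors left out in edgeR. The count at an unadjusted p under 0.05 was 693, and 520 to 877 with single tumors left out. The count of 8 listed genes outside the members was 2 to 11 with single tumors left out, 2 without SS replicate 1 and 4 without control replicate 2. A control tumor and the SS tumor of its number are from different mice. Deviations of the 3 same-numbered pairs correlated at 0.116, 0.0205 and 0.0767, so the numbers were not taken as a pairing. With the replicate number as a block, 5 listed genes and 643 of all genes had an unadjusted p under 0.05, 479 of the latter shared with the 693. Of the 8 named listed genes, 3 (Il18bp, Serping1 and Tsc22d3) were under 0.05 with the block. In limma on quantile-normalized values 5 of the 8 were, and Gbp2b, Pdcd1lg2 and Saa3 were not. Depth limits Igtp, Iigp1, Serpina3f and the receptor chains, with under 20 counts in each tumor.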

Other observations

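Among the interferon-gamma targets too low for the test, the chemokine Cxcl9, chosen after its values were seen, had 1, 1 and 0 counts in control tumors and 11, 6 and 15 counts in SS tumors. After library size the rate in SS tumors was 27.0 times the control rate, with a 95% counting interval of 6.89 to 232. Without the filter on low counts its adjusted p in edgeR was 0.828.

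The antiviral GTPase Mx2, also chosen after its values were seen, went the other way, with 4, 24 and 30 counts in control tumors and 7, 3 and 1 counts in SS tumors. Its rate ratio was 0.32, with a 95% counting interval of 0.151 to 0.616, and its adjusted p in edgeR without the filter was 0.855.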
